A study of Arabidopsis thaliana with 10 samples.

Results

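The data described here are the 2 arrays hybridised after 16 h of treatment, the latest time of a series of 10 arrays that also holds 2 arrays each at 0, 4, 8 and 10 h. All plants were Arabidopsis thaliana of genotype ag-1;35S::AG-GR, which have no functional AGAMOUS gene of their own and carry AGAMOUS joined to the steroid-binding domain of the glucocorticoid receptor under the 35S promoter, a promoter active in most plant tissues. On each array, RNA from inflorescences given a dexamethasone-containing solution was set against RNA from inflorescences given a control solution for the same number of hours, on cDNA probes chosen to favour transcripts of flowers. Dexamethasone RNA was in channel 1 of the first 16 h array and in channel 2 of the second, and the 0 h pair was laid out in the same way. No label says that separate plants were used for the arrays of a pair, so that p-values measure the spread between arrays, which may be technical, and having only 2 arrays a time limits the precision. The sources used here give no plant age, number of plants pooled or number of transgenic lines.

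AGAMOUS encodes a transcription factor of the MADS family, which gives stamens and carpels their identity and ends stem cell activity in the floral meristem. In plants without it, the flower repeats sepals and petals. A fusion to the glucocorticoid receptor is held in the cytoplasm until dexamethasone lets it enter the nucleus, so that target genes can be followed from a known starting time. By 16 h, genes acting downstream of direct targets can respond as well as the direct targets, and one measurement of steady-state RNA does not separate them.

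Each probe has 1 deposited log ratio of the channels per array, read as log10. The 16 h value of a probe is the first array's ratio minus the second array's ratio, divided by 2, so that the second array is turned to run the same way as the first. Which channel stands in the numerator is not stated. Results are therefore given as positive and negative side, and whether the positive side is a higher or a lower level with dexamethasone is unknown. The identifiers of 0 of the 10816 probes matched the RefSeq table of Arabidopsis genes (TAIR10.1), and no file gives a gene for a probe. No gene is named for this reason, the labelled tissue could not be checked against marker genes, and at most 2 probes of each side are given by identifier.

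After values of exactly 2 or -2 were dropped, 10624 probes were measured on the first 16 h array, 10630 on the second and 10582 on both. Of the 234 probes without a value on both arrays, 190 lay in columns 2, 6 and 10 of rows A and E of the 96-well plates, as read from the identifiers. The arrays were not equally wide. The interquartile range of the ratio was 0.213 on the first and 0.121 on the second, and 8.58% and 1.91% of the measured probes were at least 2-fold in size. The ratios on the first 0 h array correlated over probes with those on each of the other 9 arrays at only -0.0367 to 0.0479, so that the 0 h background below rests in part on an array that shares little with the rest. That array also lost 676 values at the limit, all at 2, against 25 on the second 0 h array, 47 on the first 16 h array and 16 on the second.

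Most probes lay near 0 at 16 h. Of the 10582 probes, 9912 had a 16 h value under 1.5-fold in size, which is 93.7%. The SD over probes was 0.101 at 16 h and 0.0867 at 0 h, and at 4, 8 and 10 h it ran from 0.0879 to 0.0994. The lowest percentile of the probes lay at or below -0.302 at 16 h and -0.174 at 0 h, and the highest at or above 0.237 and 0.304. The longer tail at 16 h was thus on the negative side, and the longer tail at 0 h was on the positive side. A 16 h value of at least 2-fold was reached by 109 probes on the negative and 37 on the positive side. At 0 h 11 and 102 probes reached it.

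**Figure D1:**
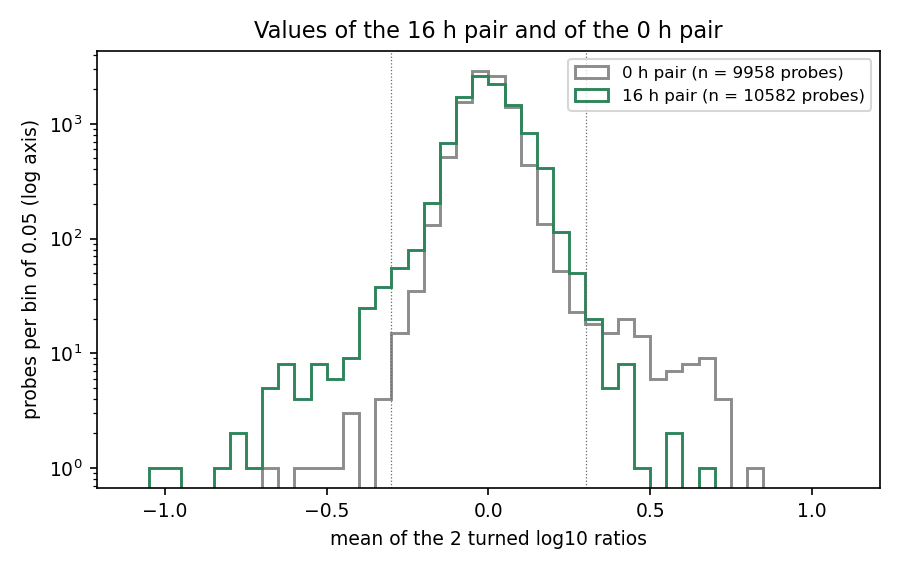
Number of probes (log axis) by the mean of the 2 turned log10 ratios of a pair, in bins of 0.05, for the 16 h pair (10582 probes) and the 0 h pair (9958 probes). Dotted lines mark 2-fold. Beyond the left line lie 109 probes of the 16 h pair against 11 of the 0 h pair, and beyond the right line 37 against 102.

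Over all probes, the 2 arrays of 16 h did not run together after turning. Their turned ratios correlated at -0.0688, and 4472 probes, or 42.3%, lay on 1 side on both. At 4, 8 and 10 h this share was 42.2% to 43.0%, and at 0 h it was 54.5%. At a bound of 1.5-fold on both arrays, 188 probes lay on 1 side (121 negative and 67 positive) and 214 on opposite sides. At a bound of 2-fold the order was the other way: 51 probes were on 1 side (40 negative and 11 positive), while 15 were at least 2-fold on opposite sides after turning, that is with 1 deposited sign in both channel layouts. At 4 h 17 probes were at least 2-fold on 1 side and 28 on opposite sides, and at 0 h 2 and 14. At 8 and 10 h there were 78 and 44 probes on 1 side and 22 and 10 on opposite sides.

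The 51 probes are 0.482% of those measured on both arrays. On the negative side stood 40 (0.378%) and on the positive side 11 (0.104%). By the same bound, 0 h held 0 and 2 probes (0% and 0.0201%) and 4 h held 14 and 3 (0.132% and 0.0283%). At 8 h there were 69 and 9 (0.653% and 0.0852%), and at 10 h 41 and 3 (0.387% and 0.0283%). Of the 40 negative probes of 16 h, 9 were also at least 2-fold on both 0 h arrays, but with opposite signs after turning. The 0 h count therefore leaves these 9 out, while all 9 are among the 14 of 4 h. The positive side held its highest count at 16 h and the negative side at 8 h, although these counts have no test of their own. The weaker array of a probe just inside the bound had a ratio of 0.304 in size on the negative and 0.308 on the positive side, and just outside it 0.301 and 0.260, where 2-fold is 0.301. The 40 probes had folds of 2.14 to 10.7 with a median of 3.69, and the 11 had folds of 2.10 to 4.91 with a median of 2.70. The probe at 10.7-fold is among the 9 named above, and the largest of the other 31 was 6.53-fold. The first array gave the larger ratio for 19 of the 40 and for 9 of the 11.

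**Figure D2:**
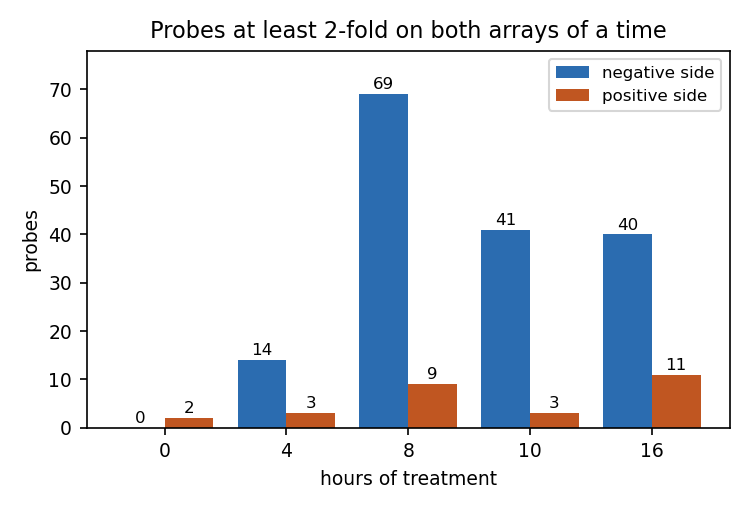
Number of probes at least 2-fold on both arrays of a time, by side and hours of treatment. The negative side holds 40 probes at 16 h and 69 at 8 h, and the positive side 11 and 9. Of the 40, 9 were also at least 2-fold on both 0 h arrays, with opposite signs after turning, and are not counted at 0 h.

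**Figure D3:**
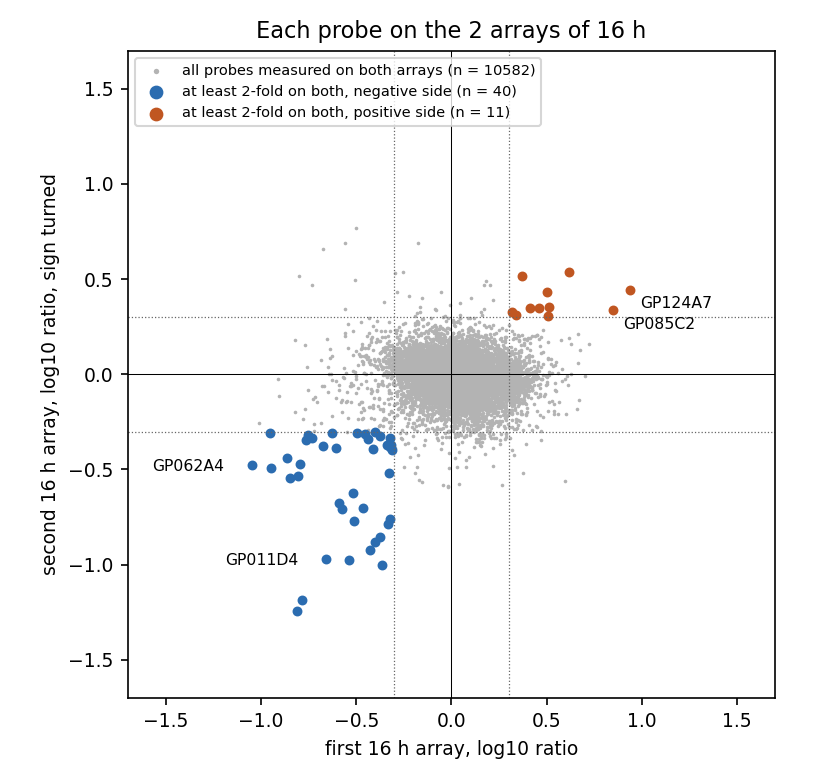
Turned log10 ratio of each of 10582 probes on the second 16 h array against the first, with dotted lines at 2-fold. The ratios of all probes correlate at -0.0688, while 40 probes lie beyond 2-fold at the lower left and 11 at the upper right.

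Tested over all probes, few differed at 16 h from 0. In the fit of all 10 arrays, 1 of 10567 probes passed (0.00946%, limma, adjusted p under 0.05), and 447 had an unadjusted p under 0.05, where 5% of the probes is 528. That fit counts a dye effect of a probe as spread, since such an effect has opposite signs on the 2 arrays after turning. When the array number was added as a block, which takes up a constant dye effect for each probe, 48 probes passed (0.454%), 35 on the negative and 13 on the positive side, and 1060 had an unadjusted p under 0.05. Of the 48, 32 were among the 51 that were at least 2-fold on both arrays. The other 16 were under 2-fold on 1 array, 9 on the negative and 7 on the positive side. The count with the block fell to 4 without the first 16 h array, to 16 without either 8 h array and to 20 without either 10 h array, and it was 71 without the second 16 h array. It was 0 with the limit values kept, and 0 if no array was turned.

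The probe that passed without the block was GP011D4, on the negative side. Its turned ratio was -0.662 on the first and -0.969 on the second 16 h array, a mean of -0.815 ± 0.217 (SD, n = 2) or 6.53-fold. At 0 h it stood at -0.229 and -0.0762, so that both 16 h arrays lay below both 0 h arrays. Its SE was 0.0838 (limma adjusted p = 0.030), and with the block 0.0780 (limma adjusted p = 0.0016). The call without the block was lost when the second 16 h array or any array of 0, 4, 8 or 10 h was left out, while with the block it was kept without each array in turn. If no array was turned, its value was 0.154 (limma adjusted p = 0.90). By size it ranked the third on the negative side. It was named for its size at 16 h, and its difference of 16 h from 0 h did not pass (limma adjusted p = 0.84, and 0.14 with the block).

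Probe GP062A4 had -1.05 and -0.476 on the 16 h arrays, a mean of -0.763 ± 0.406 (SD, n = 2) or 5.80-fold. At 0 h it had -0.0998 and -0.0493. Its 16 h arrays lay far apart, yet each was below every array of 0 and 4 h. It passed with the block (limma adjusted p = 0.013) and not without it (limma adjusted p = 0.094). With the block but without the first 16 h array, its value was -0.475 and the call was lost (limma adjusted p = 0.48). The mean was -0.218 ± 0.134 at 4 h, -0.795 ± 0.0753 at 8 h and -0.521 ± 0.0153 at 10 h, so that the 16 h mean was within the range of 8 and 10 h. For GP011D4 the mean was -0.237 ± 0.127 at 4 h, -0.723 ± 0.0563 at 8 h and -0.478 ± 0.0268 at 10 h, all nearer to 0 than its 16 h mean. Both probes were named for their size at 16 h, so that smaller earlier values are no result. For GP062A4 the difference of 16 h from 0 h did not pass (limma adjusted p = 0.84, and 0.15 with the block). For neither probe did the difference from 4 h or from the mean of 8 and 10 h pass, with or without the block.

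The 2 largest probes of the positive side had another course. Of the 13 positive calls with the block, 12 lay on the positive side on both 8 h arrays and 11 on both 10 h arrays. GP124A7 was the exception at 8 h, and GP124A7 and GP085C2 were the exceptions at 10 h. Of the 11 positive probes at least 2-fold on both 16 h arrays, 8 and 5 lay on that side. These counts are a description only. Probe GP124A7 had 0.937 and 0.444 on the 16 h arrays, a mean of 0.691 ± 0.348 (SD, n = 2) or 4.91-fold. On all 8 arrays of the other times it lay on the negative side, from -0.411 to -0.0617. The 16 h value passed with the block (limma adjusted p = 0.024) and not without it (limma adjusted p = 0.13). With the block, the call was lost without the first 16 h array, at 0.396 (limma adjusted p = 0.9999), and without either 10 h array (limma adjusted p = 0.053). Its difference from the mean of 8 and 10 h was 0.851 (SE 0.137) and did not pass, with a limma adjusted p of 0.9999, or 0.32 with the block.

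Probe GP085C2 had 0.849 and 0.336 on the 16 h arrays, a mean of 0.592 ± 0.363 (SD, n = 2) or 3.91-fold. It stood at 0.333 ± 0.220 at 8 h and at -0.241 ± 0.161 at 10 h, and at 0 h the arrays had -0.0420 and 0.0640. The arrays of 10 h were thus on the other side of those of 8 and 16 h. The 16 h value passed with the block (limma adjusted p = 0.048) and not without it (limma adjusted p = 0.28). With the block, this call was lost when any array other than the second 16 h array was left out. For GP062A4, GP124A7 and GP085C2, the larger ratio was that of the first and wider 16 h array, and for GP011D4 that of the second.

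**Figure D4:**
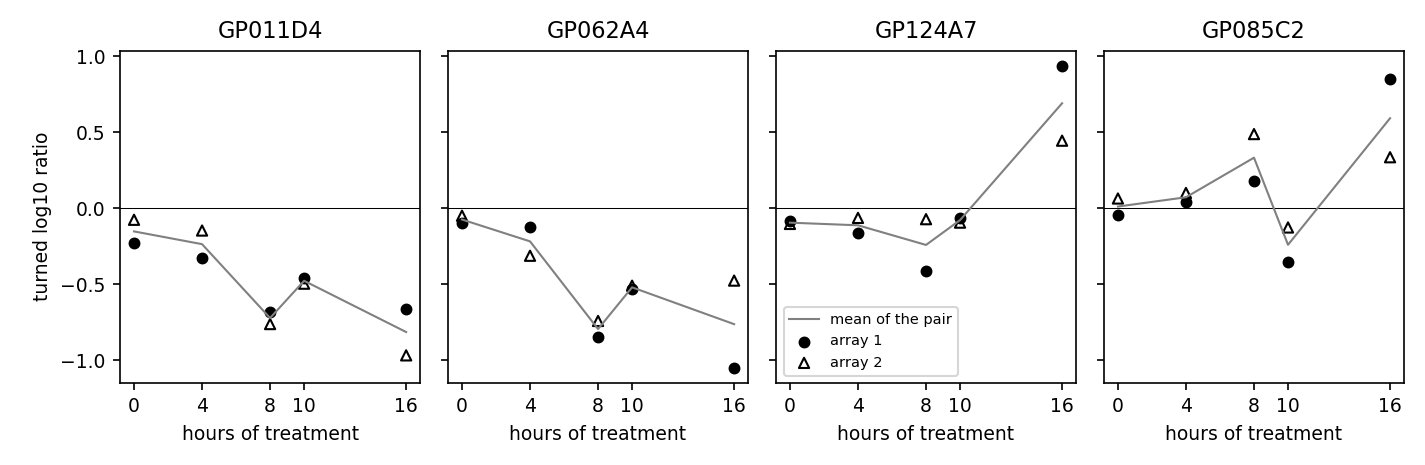
Turned log10 ratio of 4 probes on each array by hours of treatment, with a line through the mean of each pair. GP011D4 and GP062A4 lie below 0 on all arrays with means of -0.815 and -0.763 at 16 h, and GP124A7 lies above 0 only at 16 h.

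The probes at least 2-fold on both 16 h arrays were followed back over the earlier times. They were chosen on the 16 h arrays, which makes their 16 h values larger than those of an unchosen set, so that a larger size at 16 h than earlier is no result. On the negative side, 9 of the 40 were at least 2-fold on both 0 h arrays with 1 deposited sign, between 0.502 and 0.930 on the first and between 0.456 and 0.932 on the second. As labelled, their 0 h ratio went with the channel, not with the sample. The 9 lie in 2 plates and in 3 unbroken runs of wells, and the 2 probes with the lowest 16 h values of all are among them. The turned median of the 9 was -0.00240 at 0 h and lay between -0.732 and -0.625 at the treated times, with -0.642 at 16 h. The 0 h value near 0 is a mean of opposite turned ratios, with medians of 0.660 on the first 0 h array and -0.708 on the second. All 9 thus already lay on the negative side on the second 0 h array, and a change from 0 h is not shown for them. All 9 were at least 2-fold at 4 h and at 8 h on both arrays, and 8 of them at 10 h.

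The other 31 probes of the negative side came from 21 plates. They form 26 unbroken runs of wells, so that they may not all count as separate transcripts. The turned median of the 31 started at -0.00927 at 0 h (30 measured) and was -0.202 after 4 h, -0.418 after 8 h, -0.386 after 10 h and -0.533 after 16 h. On both arrays of 4 h 21 of the 31 lay on the negative side, and on both arrays of 8 h and of 10 h all 31. A size of 2-fold on both arrays was reached by 1 of them at 4 h, by 18 at 8 h and by 17 at 10 h. The 1 probe at 4 h lies in a well next to a run of the 9, and its deposited 0 h ratios, 0.177 and 0.287, also had 1 sign but were under 2-fold. Of all probes on 1 side on both 16 h arrays, 37.6% lay on that side on both 4 h arrays, 41.3% on both 8 h arrays and 41.6% on both 10 h arrays. At 0 h 12 of the 30 measured lay on the negative side on both arrays, against 34.8% of all such probes. The 9 set apart by their 0 h ratios could not lie on 1 side there, so that the split raises this share. Of the 40 together, 39 were measured at 0 h, with the same 12 on the negative side. With the block, 24 of the 31 passed at 16 h, and 2 of the 9. All were picked on the values that this test uses, so that these counts, against 0.454% of all probes, are a description only.

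The 11 probes of the positive side came from 10 plates, with no 2 in neighbouring wells. The turned median of the 11 was near 0 at 0 h (-0.0210, 9 measured) and 4 h (-0.0120), 0.265 after 8 h, 0.131 after 10 h and 0.432 after 16 h. On both arrays of 8 h 8 of the 11 lay on the positive side, on both of 10 h 5, and on both of 4 h 4. The shares over all probes on 1 side at 16 h were 41.3%, 41.6% and 37.6%, so that the counts at 10 and 4 h were near them. At 8 h 1 of them was at least 2-fold on both arrays, and at 4 and 10 h 0. Among the 11 values, those at 10 h ran from -0.241 to 0.311, on both sides of 0, while those of the 31 negative probes ran from -0.603 to -0.151. With the block, 6 of the 11 passed at 16 h, again a description beside 0.454% of all probes.

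**Figure D5:**
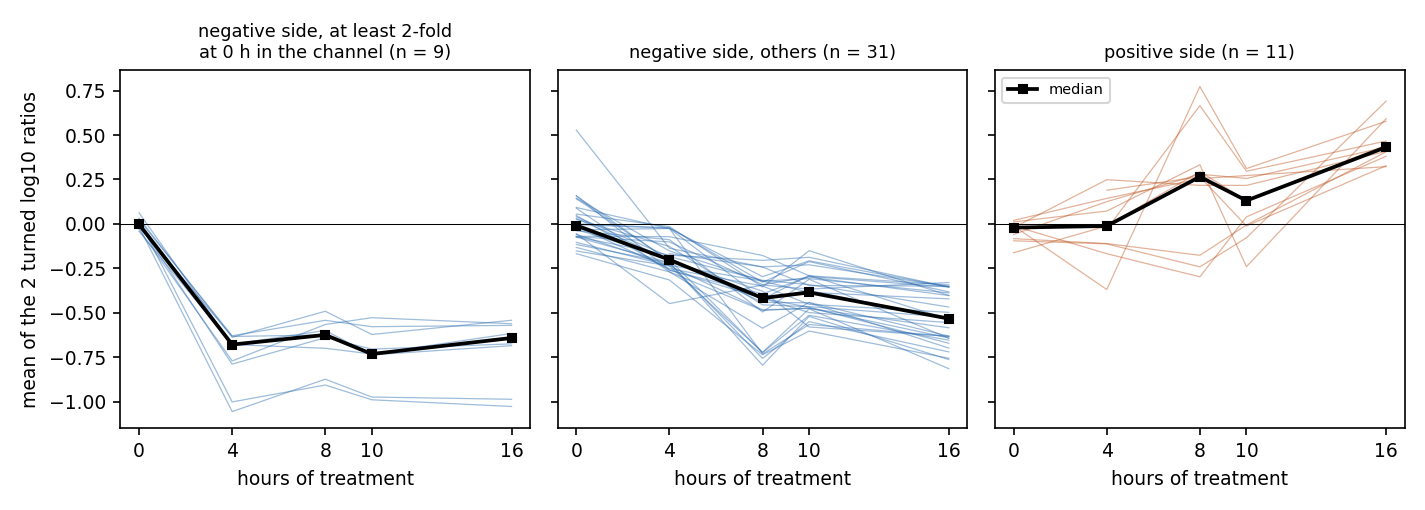
Mean of the turned log10 ratios of each pair by hours of treatment for the 51 probes at least 2-fold on both 16 h arrays, 1 line a probe, with the median in black. The 9 probes with a shared ratio at 0 h have medians of -0.679 at 4 h and -0.642 at 16 h. Their 0 h means near 0 join opposite turned ratios, with medians of 0.660 on the first and -0.708 on the second 0 h array. The other 31 of the negative side have medians of -0.202 at 4 h and -0.533 at 16 h. The 11 of the positive side have medians of -0.0120 at 4 h and 0.432 at 16 h.

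The 48 probes that passed with the block, 32 of them among the 51, were followed in the same way. Of the 35 on the negative side, 28 lay on that side on both arrays at 4 h, 35 at 8 h and 35 at 10 h. Of the 13 on the positive side, 7, 12 and 11 did. The shares over all probes, for both sides together, were 37.6%, 41.3% and 41.6%. The medians of the 13 were 0.143 at 4 h and 0.239 at 10 h, where those of the 11 were -0.0120 and 0.131. The positive calls had folds of 2.03 to 4.91 with a median of 2.27, and the negative calls 1.95 to 6.53 with a median of 3.21. Neighbouring wells held 12 of the 48, so that the 48 form 42 runs and may not all count as separate transcripts. All 10 arrays share 1 estimate of spread per probe in this fit. Agreement between the arrays of 4, 8 or 10 h, apart from a constant dye effect, lowers that estimate and favours a call. The counts at these times, beside the shares over all probes, are therefore a description only.

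Over all probes, the 16 h value correlated with that of 10 h at r = 0.542 (Spearman's rho 0.426, 10551 probes), with 8 h at 0.536, with 4 h at 0.424 and with 0 h at 0.0425. These are correlations across probes, which are not independent replicates, and the part of the ratio that does not follow the sample also recurred: the mean of the pair without turning correlated between 16 h and the other times at 0.326 to 0.549. Between arrays of 1 number, the 16 h ratio correlated at 0.362 to 0.467 with 4, 8 and 10 h for the first arrays and at 0.608 to 0.702 for the second arrays. Effects that belong to an array number would enter the turned correlations, and their part was not tested.

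Differences between 16 h and other times were tested directly. For 16 h minus 0 h, 0 of 9888 probes passed by limma (0%), and 261 had an unadjusted p under 0.05, fewer than 5% (494). With the block 2 passed (0.0202%), both on the negative side in neighbouring wells of row H of plate GP004, with 16 h values of -0.699 and -0.672 and 689 probes at an unadjusted p under 0.05. Neither had a shared ratio at 0 h. Without the second 0 h array, 48 passed, and 135 with the block. The 0 h sample is then the weakly correlated first array alone, taken to have the spread of the other times. With the block, the count was also 31 without the second 16 h array, and 0 without the first 16 h array or any array of 4, 8 or 10 h.

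For 16 h minus 4 h, 0 of 10565 probes passed by limma (0%), and 123 had an unadjusted p under 0.05 (339 with the block), fewer than 5% (528). For 16 h minus the mean of 8 and 10 h, 0 of 10525 probes passed by limma (0%), and 84 had an unadjusted p under 0.05 (284 with the block), fewer than 5% (526). No probe that passed at 16 h is therefore shown to differ at 16 h from the earlier treated times, and a p that misses the threshold does not show equal values. With the block, 8 probes passed for 16 h minus 4 h without the second 16 h array and 3 without the second 4 h array, and 5 for 16 h minus the mean of 8 and 10 h without the second 16 h array.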

How the data were processed

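For every probe of an array the authors deposited a single signed log ratio, taken here as log10. The files do not state its base. Base 10 is likely, since values end at exactly 2 and -2, with 2 values of the whole table between 1.5 and 2 in size, and folds hold only for that base. The sources used here give no scanner, dye, background correction or normalization, and signal over background is unknown. The arrays' medians were 0.00314 to 0.0165.

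Values at the limits were treated as not measured. Arrays numbered 2 changed sign, after the labelled channels. The tests used limma 3.58.1 under R 4.3.3 (lmFit and eBayes, 1 coefficient per time, all 10 arrays), two-sided, with Benjamini-Hochberg adjustment over all probes measured on both arrays of the times compared and on at least 8 arrays. The threshold was 0.05. The models were tried on simulated data with changes at 16 h alone. These data had noise below the observed spread of each probe and a dye effect common to all arrays. The trial therefore does not show how the models perform on the real arrays. Descriptions used pandas 2.3.3 and numpy 2.4.6, and plots matplotlib 3.10.9.

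It was checked whether the array numbers, which mark the channel layout in the labels, pair the arrays: over the 10 pairs of times, r between the unturned pair means was 0.252 to 0.549, and the number was used as a block.

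The 4 named probes are the 2 largest 16 h values of a side among probes that passed with the block, lay on 1 side on both 16 h arrays, were measured on all 10 arrays and were under 2-fold on both 0 h arrays, with the second of a side from another plate. The arrays, this rule and the lists were chosen with earlier results of these data known. Lists of floral genes were not used because probes are not paired with genes. The alternatives were the block, the limits kept, no array turned, scaling, centring, array weights, other filters, a 2-fold minimum, fewer arrays and combinations of these.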

Additional observations from a re-analysis of the deposited data

Results flagged for a closer look

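Probe GP124A7 lay on the positive side on both 16 h arrays and on the negative side on both arrays of each other time, with means of -0.0951 at 0 h, -0.112 after 4 h, -0.242 after 8 h and -0.0783 after 10 h against 0.691 after 16 h. The difference of 16 h from 0 h did not pass (limma adjusted p = 0.84, and 0.15 with the block), nor did that from 4 h (limma adjusted p = 0.999, and 0.64 with the block). Differences from 8 h and from 10 h alone were not tested.

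Probe GP085C2 lay on the negative side on both 10 h arrays, with a mean of -0.241, and on the positive side on both 16 h arrays. That difference alone was not tested.

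Of the 47 values at a limit on the first 16 h array, 44 were at -2, where the first 0 h array held 0 and the second 22. At 2 the first 16 h array held 3 values, the second 5, the first 0 h array 676 and the second 3. The second 16 h array held 16 limit values, 11 of them at -2. For the 47 probes, the second 16 h array had no value for 25, a limit value for 5 and a ratio for 17. Of these 17 ratios, 4 were at least 2-fold with the same deposited sign and 2 with the opposite sign. In columns 2, 6 and 10 of rows A and E lay 31 of the 47. With 2 arrays a time, no group was large enough for a test for a lone distant array.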

How the results depend on the processing

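Alternatives chosen after seeing the data are the block with scaled arrays and the block with single arrays left out. Counts are probes past the threshold, against 1 at 16 h and 0 for the differences, so that a ratio of counts rests on 1 probe or does not exist. The cause of each change was not tested. At 16 h the replicate block gave 48, only the arrays compared gave 33, scaling each array gave 4, and scaling with the block 20. The 4 and the 20 are all among the 48, and 20 of the 33. Keeping the limit values, alone or with the block, no turning, alone or with the block, and array weights gave 0. The block without the first 0 h array gave 59, with 44 of the 48. Leaving out single arrays gave 0 to 5, and with the block 4 to 71, with 41 for either 4 h array. For 16 h minus 0 h, the block, the limits kept, both together and the block without the first 0 h array gave 2 each, the block with scaling 3 and the block with no turning 1. Leaving out single arrays gave 0 to 48, and with the block 0 to 135, with 31 for the second 16 h array. For 16 h minus 4 h single arrays left out gave 0 to 1, and with the block 0 to 8. For 16 h minus the mean of 8 and 10 h the block with scaling gave 1, and single arrays left out with the block 0 to 5. With the block, leaving out either array of a time other than 16 h removes that time's pair, so that both give the same count at 16 h. The other alternatives left these counts as they were. With no turning, GP011D4 changed side, to 0.154 with and without the block, and the other 3 named probes kept theirs. In 34 alternatives the call of GP011D4 was lost with its side kept in 13, and a call was gained in 15 for GP062A4, 13 for GP124A7 and 4 for GP085C2. Signal over background is unknown and limits what can be said of weak probes.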

Other observations

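Some 16 h ratios repeat to the fifth decimal. On the first 16 h array 26 probes had exactly 0.0437 as rounded here, 19 of them in columns 2, 6 and 10 of rows A and E, and on the second 18 probes had 0.00691, 13 of them in these wells. These wells hold 676 probes.

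Probes in neighbouring wells of a row had 16 h values that correlated at 0.146 over 9436 pairs, and those 6 wells apart at 0.0468 over 5146 pairs. At 0 h these values were 0.182 and 0.183. The median 16 h value of a plate ran from -0.0548 to 0.0963 over 114 plates.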
